A study of Mus musculus with 3 samples.

Results

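Levels of 6 connexin genes, Gja1, Gjb6, Gjb1, Gjc3, Gja4 and Gjd2, were followed across the cell classes of the mouse nucleus accumbens. They were taken by symbol from a matrix of 28001 features, and all 6 were found. Another 14 connexin genes and 3 pannexin genes are in the same matrix. Single cells came from 3 samples of 1 group, labelled Thy1::ChR2 as strain. In these mice the Thy1 promoter, active in many projection neurons, drives the light-gated channel channelrhodopsin (ChR2). All 3 samples carried FLiCRE labelling, a reporter system that needs light and calcium together, during optical stimulation of ChR2 in the nucleus accumbens, and tissue came from a coronal dissection of 400 um. Neither the age nor the number of animals per sample is given in the sources used here, and no unstimulated group was analysed, so comparisons are between cell classes of the same libraries and not between treatments.

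The barcode suffix separated 3 libraries of 2717, 6627 and 2281 cells, called libraries 1 to 3 here. The suffix is not tied to a numbered sample of the labels, and nothing says that the samples came from separate animals, so the spread between libraries may be technical. After filtering, 10291 cells remained, with a median of 992.5 UMIs (unique molecular identifiers, 1 per captured RNA molecule) per cell in library 1, 2123 in library 2 and 2705 in library 3. The libraries shared 13, 7 and 22 barcodes in pairs, and no comparison of a connexin that could be fitted without those cells changed its call. A cell joined a class when it carried UMIs of at least 3 of 10 marker genes, none of them a connexin, and no other class had more than 1 in 3 as many. This gave 4653 neurons, 666 astrocytes, 1230 oligodendrocytes, 63 oligodendrocyte precursor cells (OPCs), 276 microglia, 179 macrophages, 63 T cells, 426 endothelial cells, 242 mural cells and 23 fibroblasts, while 24.0% of the cells stayed in no class. Among the neurons, 1225 carried D1-type and 832 D2-type spiny projection neuron markers, the main cell types of the accumbens, and 162 carried markers of glutamatergic neurons.

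Connexins are membrane proteins whose subunits assemble into hemichannels. Hemichannels of neighbouring cells dock to form gap junctions, through which ions and small molecules pass directly between cells. In the brain, astrocytes form large coupled networks, oligodendrocytes join astrocytes through channels built of different connexins on each side, vessel walls conduct signals along their length, and some neurons are joined by electrical synapses.

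Gja1 and Gjb6, which encode the main astrocyte connexins, were highest in astrocytes among the classes with at least 10 cells in every library. Gja1, carried by chromosome 10 (GRCm38, chr10:56377330-56402513, plus strand, ENSMUSG00000050953), stood at 905, 760 and 788 UMIs per 1000000 UMIs of the summed cells (CPM) in astrocytes of libraries 1, 2 and 3. Neurons of the same libraries stood at 4.62, 10.5 and 4.03 CPM and oligodendrocytes at 8.81, 12.5 and 5.92 CPM. No library of either class came near the astrocyte values. The mean in astrocytes was 818 ± 77.3 CPM (SD, n = 3 libraries), from 1279 UMIs in all.

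Gjb6 lies on chromosome 14 (GRCm38, chr14:57123303-57133611, minus strand, ENSMUSG00000040055), next to its close relative Gjb2. It reached 170, 225 and 149 CPM in astrocytes, a mean of 181 ± 39.6 CPM (SD, n = 3). Neurons held 2.57 ± 2.38 CPM and oligodendrocytes 3.63 ± 3.75 CPM (SD, n = 3 each). The lowest astrocyte library was well above the highest library of neurons or oligodendrocytes.

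**Figure D1:**
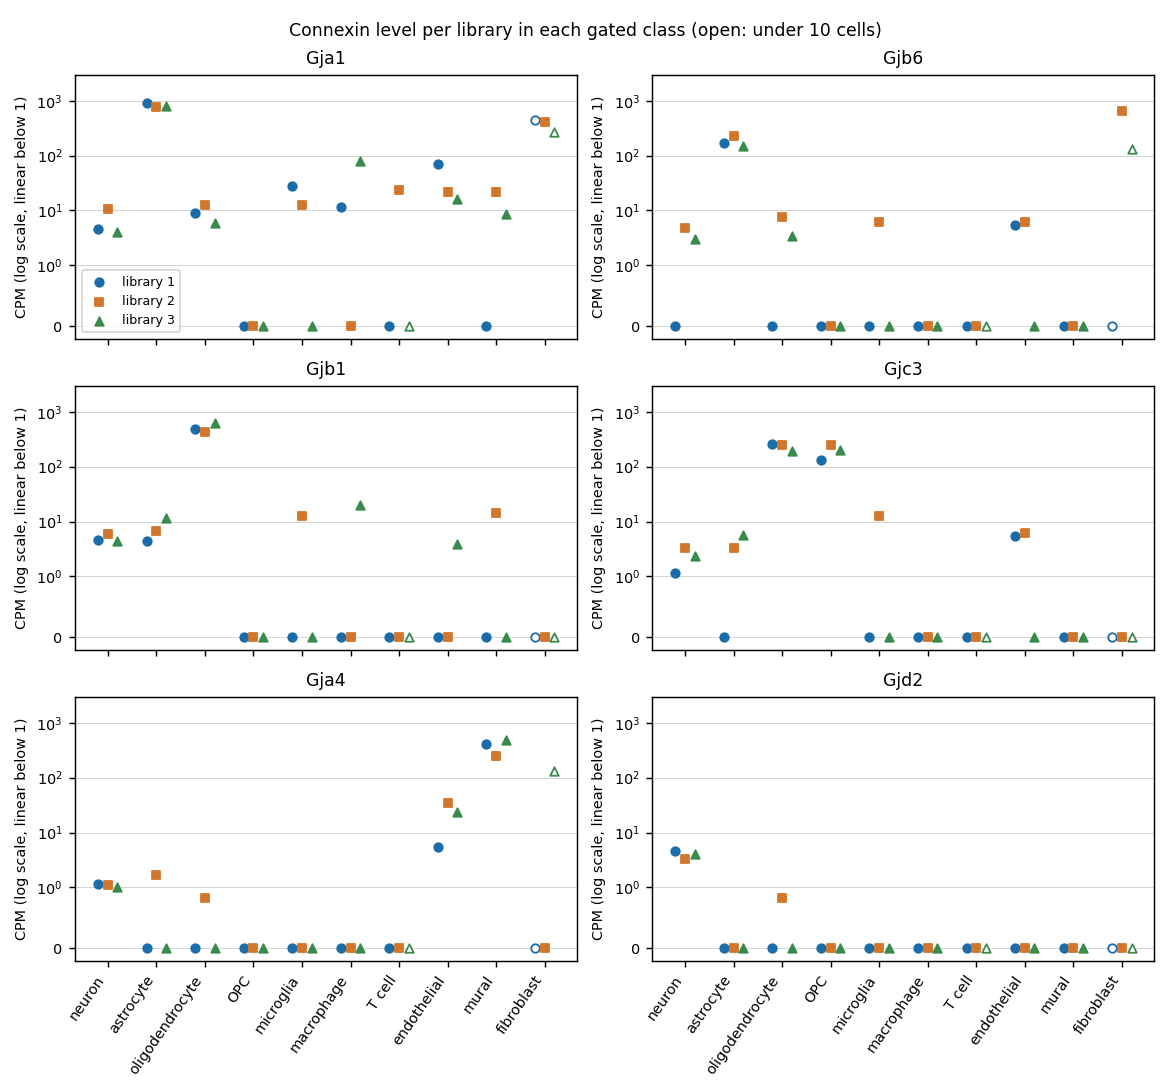
CPM of the 6 connexins in each gated class (horizontal axis) for each library (symbols), on a log axis that is linear below 1, with open symbols for fewer than 10 cells. Gja1 and Gjb6 sit high in astrocytes, Gjb1 and Gjc3 in oligodendrocytes, Gjc3 also in OPCs, and Gja4 in mural cells, while Gjd2 stays under 5 CPM in every class.

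In the fit over all classes, Gja1 was higher in astrocytes than in neurons by 7.13 on the log2 scale (SE 0.348, edgeR quasi-likelihood test, Benjamini-Hochberg adjusted p = 6.78e-56) and higher than in oligodendrocytes by 6.32 (SE 0.367, adjusted p = 3.89e-44). For Gjb6 the differences were 6.12 (SE 0.373, edgeR adjusted p = 2.00e-50) and 5.26 (SE 0.421, adjusted p = 5.07e-31). Large parts of the transcriptome differ between such classes, and 47.7% of the 14093 genes tested were called between astrocytes and neurons in either direction and 29.6% between astrocytes and oligodendrocytes. Of the 6 connexins, 3 were called in the first comparison (Gja1 and Gjb6 higher in astrocytes, Gjd2 lower) and 4 in the second (Gja1 and Gjb6 higher, Gjb1 and Gjc3 lower). The median log2 difference of the 6 was 0.72 between astrocytes and neurons, beside -0.22 over all genes tested, and -0.64 beside 0.04 between astrocytes and oligodendrocytes. The second median is set by Gja4 and Gjd2, each with at most 1 UMI in either class, so it says little about the connexins.

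Gja1 UMIs were found in 78.0 ± 6.52% of astrocytes and Gjb6 UMIs in 30.1 ± 6.78% (SD, n = 3 libraries). Neurons, which should lack both, had them in 1.57 ± 1.16% and 0.798 ± 0.702% of cells, at a median of 2238 UMIs per cell against 1882 in astrocytes. With every cell thinned to 1000 UMIs and shallower cells left out, the astrocyte shares were 55.1 ± 2.43% for Gja1 and 16.6 ± 3.87% for Gjb6, and the neuronal share of Gja1 was 0.591 ± 0.268%. Both genes thus kept a share in astrocytes far above that in neurons at equal depth. Detection of a gene in a cell rises with depth, and the unthinned shares of the 3 libraries (77.8, 71.6 and 84.6% for Gja1) were closer to each other after thinning.

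**Figure D2:**
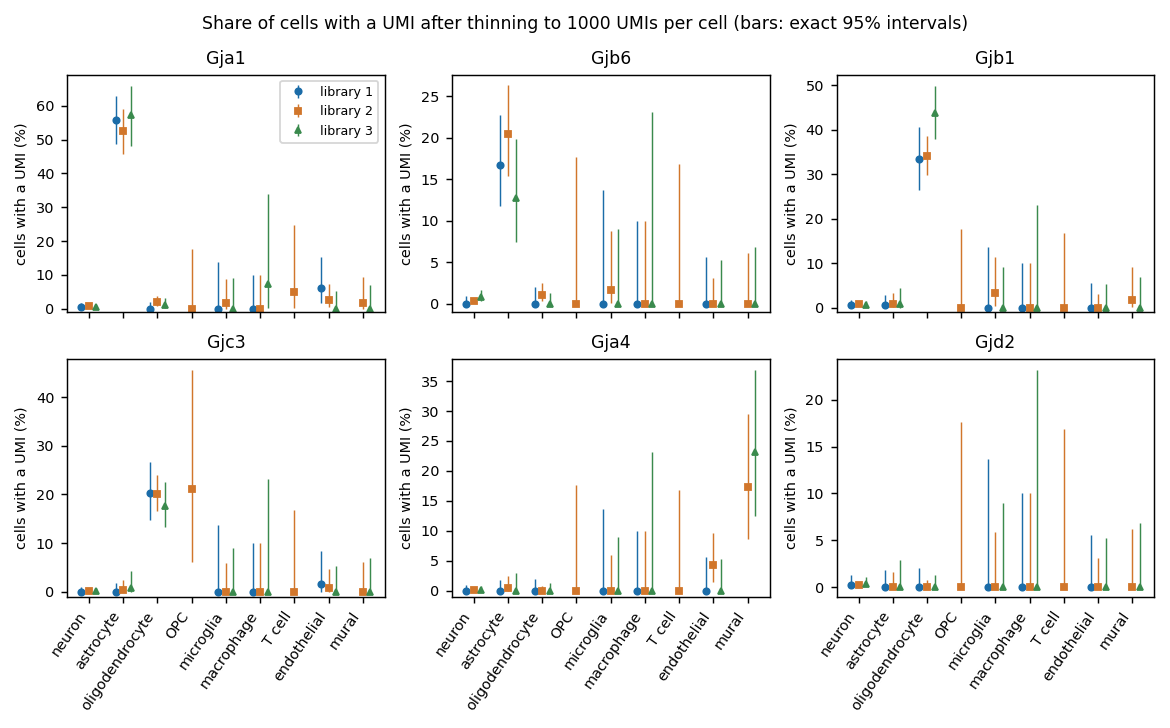
Percent of cells with at least 1 UMI of each connexin (vertical axis) by class, after each cell was thinned to 1000 UMIs, for each library with at least 10 such cells, with exact 95% binomial intervals. In astrocytes Gja1 reached a mean of 55.1% and Gjb6 16.6%, and in oligodendrocytes Gjb1 reached 37.1% and Gjc3 19.3%, while the intervals of small classes such as OPCs, macrophages and T cells span a wide range.

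The promoters of the astrocyte pair are shown because both genes were called in the same direction in the same comparisons. Each is the run of 250 bases before the RefSeq start (GRCm38.p6, 5′ to 3′ on the gene's strand), at chr10:56377050-56377299 on the plus strand for Gja1 and chr14:57133612-57133861 on the minus strand for Gjb6. Capitals mark a match to TGANTCA, the motif of AP-1 factors, which reads the same on both strands.
Gja1: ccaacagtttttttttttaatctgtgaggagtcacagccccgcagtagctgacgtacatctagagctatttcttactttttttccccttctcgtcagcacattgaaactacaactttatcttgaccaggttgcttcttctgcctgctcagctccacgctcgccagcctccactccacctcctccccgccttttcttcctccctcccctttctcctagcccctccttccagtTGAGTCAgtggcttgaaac
Gjb6: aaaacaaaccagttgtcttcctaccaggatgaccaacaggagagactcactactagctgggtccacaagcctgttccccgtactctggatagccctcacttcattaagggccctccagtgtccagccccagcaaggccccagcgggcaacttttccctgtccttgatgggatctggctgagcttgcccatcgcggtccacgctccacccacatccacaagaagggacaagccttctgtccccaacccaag
The match in Gja1 begins 19 bases before the start, while the Gjb6 window holds none. Of 32851 mouse promoter windows of this length, 6.75% hold TGANTCA. Neither window held ACAAAG or ACAATG, the letters searched on both strands for SOX factors. A match is a description of letters and not a site shown to be bound.

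Gjb1 and Gjc3, a pair of oligodendrocyte connexins, were far higher in oligodendrocytes than in neurons or astrocytes. Gjb1 was highest in oligodendrocytes, while Gjc3 was at a like level in OPCs, given further on. Gjb1 (GRCm38, chrX:101376378-101385629, plus strand, ENSMUSG00000047797), whose protein joins layers of myelin, stood at 483, 427 and 627 CPM in oligodendrocytes of libraries 1, 2 and 3. The mean was 512 ± 103 CPM, against 4.93 ± 0.775 CPM in neurons and 7.54 ± 3.69 CPM in astrocytes (SD, n = 3 each). Oligodendrocytes held 79.4% of the 1855 Gjb1 UMIs in all kept cells.

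Gjc3 (GRCm38, chr5:137953461-137963098, minus strand, ENSMUSG00000056966) encodes a connexin of myelinating glia. Its oligodendrocyte levels were 262, 243 and 195 CPM, a mean of 234 ± 34.4 CPM, and it stood at 2.29 ± 1.10 CPM in neurons and 3.04 ± 2.91 CPM in astrocytes (SD, n = 3 each). The oligodendrocyte libraries lay above every library of neurons and astrocytes.

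Oligodendrocytes exceeded neurons in Gjb1 by 7.08 on the log2 scale (SE 0.351, edgeR adjusted p = 1.22e-71) and in Gjc3 by 6.86 (SE 0.373, adjusted p = 1.76e-61). Against astrocytes, the fitted values were lower in astrocytes, at -6.20 for Gjb1 (SE 0.395, edgeR adjusted p = 1.72e-46) and -6.30 for Gjc3 (SE 0.470, adjusted p = 3.19e-35). These were the 2 connexins of the 6 called between oligodendrocytes and neurons, where 51.8% of the genes tested were called in either direction, and the median of the 6 was 0.83 on the log2 scale beside -0.26 over all genes tested. The astrocyte genes did not pass in oligodendrocytes against neurons, with 0.80 for Gja1 (edgeR adjusted p = 0.111) and 0.86 for Gjb6 (adjusted p = 0.194). At least 1 alternative to this fit did call Gja1 higher in oligodendrocytes. Its difference ran from 0.36 to 1.06 over the alternatives that kept all libraries. The oligodendrocyte genes did not pass in astrocytes against neurons, with 0.88 for Gjb1 (edgeR adjusted p = 0.185) and 0.56 for Gjc3 (adjusted p = 0.579).

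Gjb1 UMIs were present in 56.9 ± 21.3% of oligodendrocytes and Gjc3 UMIs in 36.9 ± 14.4% (SD, n = 3), at a median of 1799 UMIs per cell. The neuronal shares were 1.26 ± 0.609% and 0.647 ± 0.444% at 2238 UMIs. The share for Gjb1 was 37.2% in library 1, 53.9% in library 2 and 79.5% in library 3, whose oligodendrocytes had medians of 948, 2065 and 4128.5 UMIs. After thinning to 1000 UMIs, Gjb1 stood at 37.1 ± 5.86% and Gjc3 at 19.3 ± 1.48%, and the spread between libraries had narrowed.

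**Figure D3:**
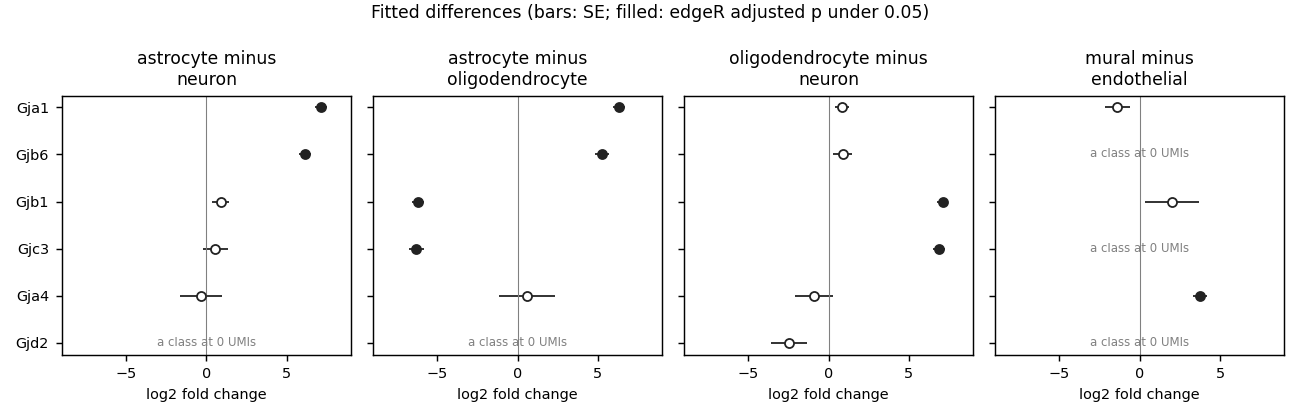
Fitted log2 differences (horizontal axis) of the 6 connexins in 4 class comparisons, with bars for the SE and filled points for an edgeR adjusted p under 0.05. No point is drawn where a class held 0 UMIs. Gja1 and Gjb6 pass in both astrocyte comparisons, Gjb1 and Gjc3 in both oligodendrocyte comparisons and Gja4 between mural and endothelial cells.

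The promoters of this pair are shown for the same reason, as 250 bases before a RefSeq start of GRCm38.p6. Gjb1 has 4 annotated starts, and the first is given (chrX:101376126-101376375, plus strand), with Gjc3 at chr5:137963099-137963348 on the minus strand. Capitals mark ACAAAG or ACAATG on either strand, short letters within the motif of SOX factors such as the oligodendrocyte regulator Sox10.
Gjb1: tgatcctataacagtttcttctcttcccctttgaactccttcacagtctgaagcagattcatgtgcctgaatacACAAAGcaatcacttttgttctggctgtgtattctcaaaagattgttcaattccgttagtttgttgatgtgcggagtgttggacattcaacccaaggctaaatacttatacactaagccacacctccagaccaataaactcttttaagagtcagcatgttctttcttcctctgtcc
Gjc3: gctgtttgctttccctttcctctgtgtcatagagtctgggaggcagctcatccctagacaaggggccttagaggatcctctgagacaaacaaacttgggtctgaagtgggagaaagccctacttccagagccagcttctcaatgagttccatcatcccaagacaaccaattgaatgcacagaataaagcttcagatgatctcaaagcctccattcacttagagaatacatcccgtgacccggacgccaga
The first Gjb1 window holds ACAAAG beginning 176 bases before the start. The window before the fourth start holds ACAAAG at 57 bases and ACAATG at 47 bases, and the other two windows of Gjb1 and the Gjc3 window hold neither. Among all windows of this length, 16.5% hold ACAAAG and 10.7% hold ACAATG. The windows of Gja4 and Gjd2 held none of the 3 motifs.

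OPCs, the dividing precursors of oligodendrocytes, carried Gjc3 and no UMI of the other 5 connexins. Gjc3 stood at 132, 247 and 198 CPM in OPCs of libraries 1, 2 and 3, from 2, 11 and 6 UMIs, a mean of 192 ± 57.7 CPM (SD, n = 3). This range overlaps that of oligodendrocytes in the same libraries (262, 243 and 195 CPM). Gjb1 was at 0 UMIs in all 63 OPCs, and the pooled level of oligodendrocytes was 15.6-fold above a floor of 3 counts over the OPCs. Gja1 was also at 0, and the pooled level of astrocytes was 24.4-fold above that floor.

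Between OPCs and oligodendrocytes, 2 of the 6 connexins were called, both lower in OPCs, where 12.8% of the genes tested were called in either direction and 9.3% were lower in OPCs. These were Gjb1 (edgeR adjusted p = 1.01e-19) and Gjc3, for which the fitted difference was -1.31 (SE 0.415, edgeR adjusted p = 0.0175). The median of all genes tested was -0.84 in this comparison, and with size factors by relative log expression (RLE), where that median was -0.02, Gjc3 stood at -0.44 with an edgeR adjusted p of 0.733. The call on Gjc3 was also lost without any 1 of the 3 libraries (-1.57 to -1.11), whereas that on Gjb1 held in each of these fits. Gjc3 UMIs were seen in 24.8 ± 10.3% of OPCs (SD, n = 3), at a median of 1011 UMIs per cell. In library 2, the only library with at least 10 OPCs left after thinning to 1000 UMIs, the share was 21.1%. It rests on a part of the 36 OPCs of that library, so its counting error is large. Oligodendrocytes stood at 19.3 ± 1.48% (SD, n = 3 libraries). Another 102 cells in no class had OPC markers as their leading list, and these held Gjc3 at 280 CPM (54 UMIs), Gjb1 at 15.6 CPM (3 UMIs) and Gja1 at 0.

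Gja4 encodes a connexin of vessel walls (GRCm38, chr4:127311421-127314039, minus strand, ENSMUSG00000050234). It was highest in mural cells, the smooth muscle cells and pericytes that wrap vessels, with 412, 250 and 482 CPM in libraries 1, 2 and 3 (13, 35 and 57 UMIs). Endothelial cells held 5.44, 34.2 and 23.8 CPM, all below the lowest mural value. The means were 382 ± 119 CPM and 21.2 ± 14.6 CPM (SD, n = 3 each), and the fitted difference was 3.72 (SE 0.440, edgeR adjusted p = 1.11e-14). Gja4 was 1 of 6 connexins called between these classes, where 11% of the genes tested were called in either direction, and the median of the 6 was -0.69 beside -0.13 over all genes tested. That median says little about the connexins, because Gjd2 was at 0 UMIs in both classes and Gjb6 and Gjc3 were at 0 in mural cells. Microglia were at 0 Gja4 UMIs in 276 cells, and the pooled mural level was 42.0-fold above a floor of 3 counts over the microglia.

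Gja4 UMIs were found in 28.8 ± 11.1% of mural cells and 3.64 ± 2.71% of endothelial cells (SD, n = 3), beside 0.273 ± 0.116% of neurons. After thinning to 1000 UMIs the mural share was 17.2% in library 2 and 23.1% in library 3. Library 1 kept too few cells for a value.

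Within these classes, the arteriolar side was described without a test because the sums were small. Mural cells with smooth muscle markers held 384, 244 and 760 CPM, and pericyte-like mural cells, with none of those markers, held 242, 254 and 348 CPM. Pooled over libraries, the levels were 491 CPM in 57 smooth muscle cells (exact 95% Poisson interval 350.5 to 668) and 285 CPM in 147 pericyte-like cells (206 to 384), and these intervals overlap. In 32 endothelial cells with arterial markers, 12 Gja4 UMIs gave 168 CPM (86.8 to 293). In the other 394 endothelial cells, 6 UMIs gave 8.75 CPM (3.21 to 19.1), so the intervals of the endothelial subclasses do not overlap. Most endothelial Gja4 UMIs, 12 of 18, thus came from the few arterial cells, and all intervals cover counting error only.

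**Figure D4:**
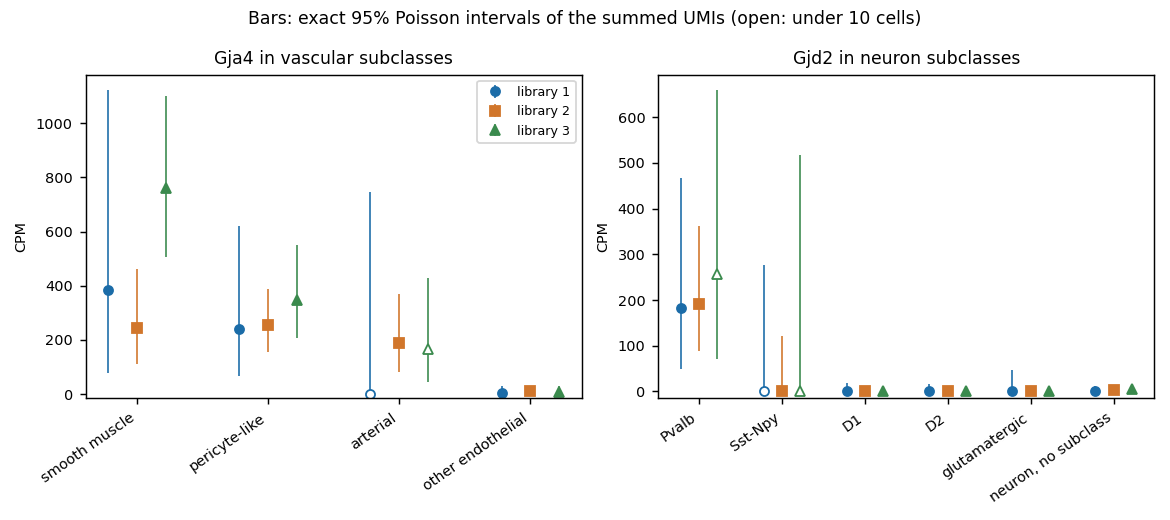
CPM of Gja4 in vascular subclasses (left) and of Gjd2 in neuron subclasses (right) for each library, with exact 95% Poisson intervals and open symbols for fewer than 10 cells. Gja4 is seen in smooth muscle, pericyte-like and arterial cells and stays under 11 CPM in other endothelial cells, and Gjd2 is between 182 and 258 CPM in Pvalb neurons.

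Fibroblasts were few, 7, 12 and 4 cells in libraries 1, 2 and 3, yet carried both astrocyte connexins, which meningeal and perivascular fibroblasts are known to express. Gja1 stood at 452, 403 and 269 CPM (4, 8 and 2 UMIs) and was seen in 10 of 23 cells. Gjb6 stood at 0, 655 and 135 CPM (0, 13 and 1 UMIs) and was seen in 8 of 23 cells. Library 2 gave nearly all of the Gjb6 UMIs. In its fibroblasts the astrocyte genes Slc1a2 and Gpr37l1 were at 0 UMIs, while Slc1a3 was at 705 CPM and Plpp3 at 302 CPM.

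With 1 fibroblast sum, that of library 2, assumed to vary like the sums of the other classes, Gja1 was lower in fibroblasts than in astrocytes by a fitted -2.20 (SE 0.621, edgeR adjusted p = 0.0234). The Gjb6 difference was 0.32 (SE 0.630, edgeR adjusted p = 0.936). Gja1 was the single call among the 6, where 2.63% of the genes tested were called in either direction. The Gja1 call was lost under RLE scaling, at -1.43 (edgeR adjusted p = 0.732), and without a library block.

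Gjd2 encodes the main connexin of electrical synapses between neurons (GRCm38, chr2:114009601-114013619, minus strand, ENSMUSG00000068615). It overlaps A530058N18Rik on the plus strand, which is not among the features. Gjd2 was sparse, with 58 UMIs in all kept cells, of which 45 were in neurons, 1 in an oligodendrocyte and 12 in cells of no class. Neurons held 4.62, 3.24 and 4.03 CPM, a mean of 3.96 ± 0.690 CPM (SD, n = 3), and Gjd2 was detected in 35 of 4653 neurons. The highest count in a neuron was 3 UMIs.

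Astrocytes were at 0 Gjd2 UMIs in 666 cells. The pooled level of neurons was 1.85-fold above a floor of 3 counts over the astrocytes, which is not a lower limit. Gjd2 was called between these classes, with an edgeR adjusted p of 0.0383. The call was lost in fits without library 1 or library 3 (-4.69 and -4.39 on the log2 scale, values set by the prior count), and without library 2 the gene was too low to test. Oligodendrocytes differed from neurons by -2.50 (SE 1.12, edgeR adjusted p = 0.0508), which misses the threshold.

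Among neuron subclasses, the level of Gjd2 was highest in neurons with markers of parvalbumin interneurons, fast-spiking inhibitory cells known to be coupled by gap junctions. Of the 45 neuronal UMIs, 17 were in Pvalb neurons and 24, in 19 cells, in neurons of no subclass. Pvalb neurons of libraries 1, 2 and 3 held 182, 191 and 258 CPM, from 4, 9 and 4 UMIs in 3, 6 and 3 cells. The 26 cells together gave 201 CPM (exact 95% Poisson interval 117 to 322), with 12 of 26 cells positive at a median of 3005 UMIs per cell. D1 neurons held 0.680 ± 0.629 CPM (3 UMIs) and D2 neurons 0.246 ± 0.426 CPM (1 UMI; SD, n = 3 each). The 162 glutamatergic neurons held 0 UMIs, and the pooled Pvalb level was 51.5-fold above a floor of 3 counts over them. The 21 Sst-Npy interneurons held 0 UMIs as well, and the pooled Pvalb level was 3.39-fold above their floor. These folds leave out the counting error of the Pvalb level and are not lower limits. Every library of Pvalb neurons lay above every library of D1 and D2 neurons.

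Gjd2 stayed below the minimum for testing among neuron subclasses, which was 20 UMIs over all subclass sums of at least 10 cells. Without that minimum, in a fit with 2 Pvalb sums (libraries 1 and 2), Gjd2 was higher in Pvalb than in D1 neurons by 7.14 on the log2 scale (SE 1.04, edgeR adjusted p = 8.70e-05), where 3.08% of 16614 genes were called in either direction. That call was lost without library 2, at 7.44 with an edgeR adjusted p of 0.544. It passed without library 1 (adjusted p = 0.00735) and without library 3 (adjusted p = 0.00437). Without library 1 or library 2 a single Pvalb sum is left and is assumed to vary like the other subclasses, and library 3 holds no Pvalb sum, so these fits say little about stability. After thinning to 1000 UMIs, Gjd2 remained detectable in 17.5 ± 10.6% of Pvalb neurons (SD, n = 2 libraries), beside 0.303 ± 0.0769% of all neurons (n = 3).

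Of the 35 neurons with Gjd2, 20 carried at least 1 of the Pvalb-list markers Pvalb, Pthlh, Cox6a2, Kit and Btbd11 (57.1%), against 6.0% of the neurons without Gjd2. The 20 take in the 12 gated Pvalb neurons with Gjd2, which carry such markers by the gate itself. Among Gjd2 neurons in no subclass, 8 of 19 carried such a marker, against 7.69% of the other neurons in no subclass. By gene, the shares of these 19 were 42.1% for Pthlh, 36.8% for Kit, 31.6% for Cox6a2, 15.8% for Pvalb and 5.26% for Btbd11. Neurons with Gjd2 were deeper, with a median of 3652 UMIs against 2223.5, and the part of depth in these shares was not tested. Gja1 and Gjb1, the only members with enough UMIs to test between D1 and D2 neurons, stood at -0.79 and 0.52 on the log2 scale (edgeR adjusted p of 1 for each, 0 of 2 at an unadjusted p under 0.05, 0 called by DESeq2), where 0.836% of 11485 genes were called in either direction.

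Microglia carried little of any of the 6 genes. Gja1 stood at 13.6 ± 14.3 CPM, Gjb1 and Gjc3 at 4.14 ± 7.16 CPM and Gjb6 at 2.07 ± 3.58 CPM (SD, n = 3), and Gja4 and Gjd2 were at 0 UMIs. None of the 6 was called between microglia and neurons by edgeR, none had an unadjusted p under 0.05, and DESeq2 called none of the 5 for which it gave an adjusted p, where 35.7% of the genes tested were called by edgeR in either direction. The median of the 6 was 0.10 on the log2 scale beside -0.76 over all genes tested. It is set by Gjb6 and Gjb1, with 1 and 2 UMIs in microglia, so it says little about the connexins.

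In order of mean Gja1 level, astrocytes (818 CPM) were followed by endothelial cells at 36.1 ± 30.1 CPM, macrophages at 30.4 ± 43.0 CPM, microglia at 13.6 ± 14.3 CPM, mural cells at 9.96 ± 10.8 CPM, oligodendrocytes at 9.08 ± 3.29 CPM, neurons at 6.39 ± 3.59 CPM and OPCs at 0 (SD, n = 3 each), leaving out T cells and fibroblasts, which had fewer sums. Neighbours from endothelial cells down to neurons did not differ beyond their SDs, which leave out the pairing by library. Oligodendrocytes lay above neurons in each library, without a call in the fit over all classes (0.80, edgeR adjusted p = 0.111). Every endothelial library lay above every neuron library. Endothelial Gja1 was 70.8 CPM in library 1, 21.8 in library 2 and 15.9 in library 3 (13, 7 and 4 UMIs), with 0 of 24 UMIs in arterial cells. The floor of 3 counts over the 32 arterial cells was 42.0 CPM, above the endothelial mean, so this does not show absence. For Gja4 the order was mural, endothelial (21.2 CPM), neuron (1.09 ± 0.0772 CPM), astrocyte (0.557 ± 0.964 CPM) and oligodendrocyte (0.278 ± 0.481 CPM). Among the last 3, neurons and astrocytes, and astrocytes and oligodendrocytes, did not differ beyond their spread. Oligodendrocytes (0, 0.833 and 0 CPM, 1 UMI) lay below neurons (14 UMIs) in each library. The fit over all classes did not call this difference (-0.92, SE 1.18, edgeR adjusted p = 0.534). OPCs, microglia, macrophages and T cells held no Gja4 UMI and fibroblasts 1.

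Outside astrocytes and the few fibroblasts, whose high Gjb6 is given above, Gjb6 stayed low. It stood at 3.89 ± 3.39 CPM in endothelial cells, 3.63 ± 3.75 CPM in oligodendrocytes, 2.57 ± 2.38 CPM in neurons and 2.07 ± 3.58 CPM in microglia (SD, n = 3 each). These classes did not differ beyond their spread. Gjb6 was at 0 UMIs in OPCs, macrophages, T cells and mural cells. Outside oligodendrocytes, Gjb1 ran from 7.54 ± 3.69 CPM in astrocytes through 6.63 ± 11.5 CPM in macrophages and 4.76 ± 8.25 CPM in mural cells to 1.32 ± 2.29 CPM in endothelial cells, again without a neighbouring pair apart beyond its spread, and was at 0 UMIs in OPCs, T cells and fibroblasts. Gjc3 outside oligodendrocytes and OPCs stayed between 4.14 ± 7.16 CPM in microglia and 2.29 ± 1.10 CPM in neurons where it was seen, and was at 0 UMIs in macrophages, T cells, mural cells and fibroblasts.

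Low levels outside the main class were set beside genes of that main class. Pooled over libraries, astrocytes had 6.11 Gja1 UMIs per 100 UMIs of the astrocyte genes Slc1a2, Slc1a3, Plpp3 and Gpr37l1 (exact 95% interval 5.78 to 6.45), and neurons had 3.15 (2.59 to 3.79). Endothelial cells had 17.1 (11.0 to 25.5), with 48.1 in library 1 (25.6 to 82.3), 8.14 in library 2 (3.27 to 16.8) and 14.8 in library 3 (4.04 to 37.9). The astrocytes of these libraries had 5.62, 8.33 and 5.05. The endothelial ratio was thus above that of astrocytes in library 1, while in libraries 2 and 3 its interval took in the astrocyte value, and without library 1, a check chosen after seeing the data, the pooled endothelial ratio was 9.73 (4.86 to 17.4), beside 6.38 (5.96 to 6.82) in astrocytes. The neuronal ratio was below that of astrocytes in each library (1.77, 3.72 and 1.61). For Gjb6 the ratio was 1.05, 2.47 and 0.954 in astrocytes of libraries 1, 2 and 3 and 0, 1.66 and 1.21 in neurons, with 42 of the 51 neuronal UMIs in library 2, so the order of the classes differed between libraries. Per 100 UMIs of a set of oligodendrocyte genes, pooled Gjb1 was 1.07 (1.02 to 1.13) in oligodendrocytes and 0.860 (0.669 to 1.09) in neurons. Gjc3 was 0.466 (0.431 to 0.503) and 0.474 (0.335 to 0.650) in the same classes. Astrocytes were lower in both, at 0.427 (0.221 to 0.746) for Gjb1 and 0.178 (0.0578 to 0.416) for Gjc3. The part of free RNA in these low levels was not tested.

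Cells in no class held 40.8% of the 2478 Gja1 UMIs, 44.1% of the 665 Gjb6 UMIs and 15.9% of the Gjb1 UMIs. Sorted by their leading marker list, 355 of them led with astrocyte markers and held Gja1 at 611 CPM in 73.5% of cells and Gjb6 at 179 CPM. In another 228 that led with oligodendrocyte markers, Gjb1 stood at 305 CPM and Gjc3 at 178 CPM, while 92 that led with mural markers held Gja4 at 234 CPM. A further 35 that led with fibroblast markers held Gja1 at 403 CPM (29 UMIs) and Gjb6 at 181 CPM (13 UMIs). Gjb6 was seen in 17.1% of these, against 35.5% of the cells led by astrocyte markers (209 UMIs). The 228 cells led by oligodendrocyte markers also held 97 Gja1 UMIs, in 18.9% of cells, and 25 Gja4 UMIs. All 1230 gated oligodendrocytes held 26 and 1. In 1052 cells led by neuron markers there were 130 Gja1 UMIs (54.6 CPM), against 110 in 4653 gated neurons. Cells led by endothelial (19.2 CPM) or macrophage markers (16.2 CPM) held less Gja1 than the gated classes. Low levels outside the main class thus describe gated cells, and the part of mixed cells was not tested.

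Detection in the same cell was examined at equal depth. Of 548 astrocytes thinned to 1000 UMIs, 53 had both Gja1 and Gjb6, 247 had only Gja1, 42 had only Gjb6 and 206 had neither. The share with both, 9.67%, lay near the product of the single shares, 9.49%. In 932 oligodendrocytes, 63 had both Gjb1 and Gjc3 (6.76%, product 7.17%), 281 only Gjb1 and 118 only Gjc3. Gjb6 was seen in 17.7% of astrocytes with Gja1 and 16.9% of those without it, and Gjc3 in 18.3% of oligodendrocytes with Gjb1 and 20.1% of those without it. At these levels many cells that hold a transcript give no UMI.

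**Figure D5:**
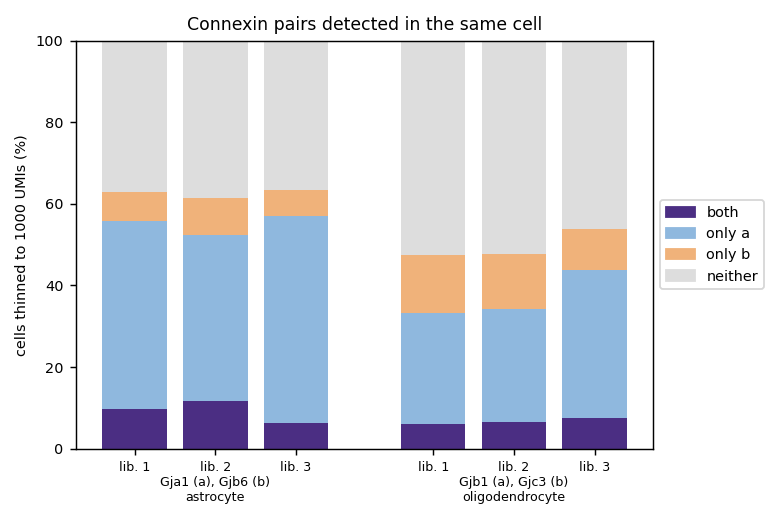
Percent of cells (vertical axis, thinned to 1000 UMIs) with both, 1 or neither of a pair of connexins in each library, in astrocytes and oligodendrocytes. Both Gja1 and Gjb6 were seen in 6.35 to 11.6% of astrocytes, and cells with only Gja1 were more common than cells with only Gjb6 in all 3 libraries.

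Of the 14 other connexins, 6 had no UMI and 5 had 1 to 5. Gjc1, a connexin of smooth muscle and pericytes, stood at 317, 393 and 499 CPM in mural cells and at 70.8, 52.9 and 119 CPM in endothelial cells, a fitted difference of 2.12 (SE 0.359, edgeR adjusted p = 1.91e-07). Gjb2, known from the meninges as well as from astrocytes, stood at 21.8 ± 11.3 CPM in astrocytes (SD, n = 3) and at 0, 403 and 404 CPM in fibroblasts. It was higher in astrocytes than in neurons by 5.36 (SE 0.638, edgeR adjusted p = 2.36e-15) and higher in the 1 fibroblast sum than in astrocytes by 3.14 (SE 0.942, adjusted p = 0.0370). The fibroblast call on Gjb2 was lost in 6 alternatives, among them no library block (3.11, edgeR adjusted p = 0.0783) and leaving out library 1 (3.45, adjusted p = 0.0771).

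The pannexins form channels in the membrane of single cells. Panx1 and Panx2, the 2 of 3 with enough UMIs, were lower in astrocytes than in neurons, at -3.02 and -2.98 (edgeR adjusted p = 8.03e-05 and 0.00011) and lower in oligodendrocytes than in neurons, at -2.63 and -2.92 (adjusted p = 1.06e-05 and 5.13e-06). With DESeq2 the Panx2 call in oligodendrocytes was lost (-4.30, adjusted p = 0.383) and the Panx2 test in astrocytes gave no adjusted p.

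Genes for proteins that bind or traffic connexins differed in both directions between glia and neurons. Tjp1 (1.39), a scaffold protein that binds connexins, and Hepacam (5.46), an adhesion protein of glia, were higher in astrocytes than in neurons, while Cnst (-2.24), which takes part in connexin trafficking, and Dbn1 (-1.79), an actin binder, were lower (edgeR adjusted p at most 3.34e-05). Between oligodendrocytes and neurons, Tjp1 (1.61) and Hepacam (4.53) were higher, and Cnst (-3.06), Dbn1 (-3.36) and the ubiquitin ligase gene Nedd4 (-0.64, edgeR adjusted p = 0.0315) were lower. The Nedd4 call was lost without any 1 of the libraries (-0.65 to -0.49), without the library block (-0.63, edgeR adjusted p = 0.222) and with only both classes in the fit (-0.49). Hepacam was higher in astrocytes than in oligodendrocytes by 0.92 (edgeR adjusted p = 0.00246), a call that 3 alternatives ended. DESeq2 gave an adjusted p of 0.0957, the fit with no block one of 0.109, and leaving out library 1 moved the difference to 0.81 (edgeR adjusted p = 0.0517). In OPCs it stood at -1.42 against oligodendrocytes (edgeR adjusted p = 0.0118), but at -0.55 with RLE scaling (adjusted p = 0.640) and -0.68 with DESeq2 (adjusted p = 0.642), and the call was also lost without library 1 or library 2 (-1.20 and -1.44). Tjp1 stood at 478 ± 151 CPM in endothelial cells and 147 ± 22.5 CPM in mural cells (SD, n = 3), a fitted difference of -1.84 (SE 0.340, edgeR adjusted p = 2.65e-06), opposite in direction to Gja4.

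The genes whose levels were most like those of each connexin were ranked by Pearson's r of log2(CPM + 10) over 10 classes, among 14093 genes without the gate markers. For Gja1 these were Oplah (0.964), Entpd2 (0.960) and Dio2 (0.952), and for Gjb6 Proca1 (0.992), Aspg (0.991) and Car5b (0.989). For Gjb1 they were Tnni1 (0.995), Dnah14 (0.993) and 2210011C24Rik (0.993), and for Gjc3 Plxnb3 (0.995), Aldh1l2 (0.995) and Erbb3 (0.993). For Gja4 they were Egflam (0.9998), Phldb2 (0.987) and 1810011O10Rik (0.986), and for Gjd2 Sidt1, Mak and Cort, each at an r that rounds to 1. The classes share libraries and differ in depth, and 1 high class is enough for a large r, so these values describe likeness over 10 points and carry no test.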

How the data were processed

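Single cells of the nucleus accumbens were profiled with the 10x Genomics 3′ v2 kit, per the labels' protocols. The deposited matrix holds unnormalised UMI counts, which the authors made with Cell Ranger 3.0 on mm10, per the submitters' processing notes. Other steps are not given in the sources used here. Doublet removal before deposit is not stated.

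The members, marker lists and other gene lists were chosen with earlier results of these data known. Filtering removed cells under 300 genes or over 20% mitochondrial UMIs. Neuron subclasses needed 2 of 5 markers, as did smooth muscle within mural cells, pericyte-like cells had none of those, and arterial cells needed 2 of 6 within endothelial cells. The T cell list had 9 genes in the matrix. Of the astrocytes, 68 had exactly 3 markers, and 271 further cells with at least 3 were kept out by another class. Doublets were not removed, except in an alternative that dropped the highest Scrublet scores (scanpy 1.11.5; 44, 296 and 28 cells).

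UMIs were summed per library and class with at least 10 cells, and CPM used all UMIs of the sum. Genes with at least 20 UMIs over the sums were tested with edgeR 4.0.16 (quasi-likelihood, TMM scaling, R 4.3.3), 1 fit for classes and 1 for neuron subclasses. Library was a block because both sums of a comparison come from the same library. Benjamini-Hochberg adjustment ran over all genes tested, at 0.05, and the code was tested on simulated data. The SE of an edgeR difference was worked back from the test, as its absolute log2 value divided by the square root of the F statistic. Total deposited UMIs were 3066390, 16499307 and 7061226. Poisson and Clopper-Pearson intervals (95%) and floors of 3 counts cover counting error only. Alternatives were RLE scaling, DESeq2 1.42.0, other filters, priors, gates and depths, no block, leaving out shared barcodes or each library, and fits of only the classes compared. Gene positions are those of GENCODE on GRCm38, and promoter sequences are from RefSeq (all 6 members matched). Named genes were all members, the members of 3 lists (other connexins, pannexins, gap junction partners) that passed, and the 3 genes most like each member. Some genes of these lists are not reported here.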

Additional observations from a re-analysis of the deposited data

How the results depend on the processing

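Gja1 and Gjb6 in both astrocyte comparisons, Gjb1 and Gjc3 in oligodendrocytes against neurons and astrocytes, Gjb1 in OPCs and Gja4 in mural cells (3.15 to 4.50) kept direction and call in all alternatives run. Gjc3 between OPCs and oligodendrocytes lost its call with RLE scaling (-0.44), DESeq2 (-0.41), edgeR's expression filter (-1.10), a gate of 2 markers (-1.10) or 4 (-1.18), cells of at least 1000 UMIs (-1.26), only the classes compared (-1.01), a looser gate that let another class reach 50 percent as many markers (-0.75, chosen after seeing the data) and without each library (-1.57 to -1.11). Without the library block, which pairs the sums of a library, it was -1.30 (edgeR adjusted p = 0.101). Gja1 between fibroblasts and astrocytes lost its call with RLE (-1.43), DESeq2 (-1.45), the expression filter (-1.94), no block (-2.12) and without library 1 or 3 (-2.19 to -2.02), and Gjb6 there reversed with the looser gate (-0.47; without a library 0.26 to 0.45). Fibroblasts could not be fitted without library 2, in cells of at least 1000 UMIs or alone with astrocytes.

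For Gjd2, the astrocyte against neuron call was lost with DESeq2 (-3.28), no filter (-4.36), the looser gate (-2.30), only the 2 classes (-6.17) and without library 1 or 3 (-4.69 to -4.39), while oligodendrocytes against neurons passed with RLE (-2.87), the default prior (-2.50), gates of 2 (-2.50) or 4 markers (-2.63), high Scrublet scores removed (-2.50) and the looser gate (-2.64), and gave -2.25 to -1.87 without a library. The expression filter and leaving out library 2 gave no value. Pvalb against D1 neurons without a library was 7.18 to 7.44. Thinning moved some shares of cells by more than the SD between libraries. These became 55.1% (Gja1), 16.6% (Gjb6), 19.3% (Gjc3), 0.303% (Gjd2 in neurons) and 17.5% (Gjd2 in Pvalb neurons). Gjb1 in oligodendrocytes (37.1%) and Gja4 in mural cells (20.2%) fell as well, but by less than that SD. The looser gate moved Gjd2 in Pvalb neurons to 136 CPM, and the cause of this change with the gate was not tested. Of 585 alternatives for 37 further comparisons of members and listed genes, 544 kept direction and call, 38 lost and 2 gained a call. At least 1 of the gains was Gja1 between oligodendrocytes and neurons. The 1 that reversed was Gjc3 between astrocytes and neurons, a difference without a call, at -0.12 without library 3 (0.97 without library 1).

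RLE scaling moved the median of all genes by -0.47 (oligodendrocytes against neurons) to 0.82 (OPCs against oligodendrocytes), and the share of calls that were higher from 55.3 to 70.6% (astrocytes against oligodendrocytes), 41.9 to 25.9% (oligodendrocytes against neurons), 27.2 to 66.8% (OPCs), 43.0 to 54.8% (mural cells), 31.5 to 62.9% (fibroblasts), 41.4 to 67.9% (Sst-Npy) and 30.0 to 46.2% (Pvalb). Counts of called genes moved by over 1.5 times for OPCs (1800; RLE 1139, deeper cells 614, 2 classes 1137, without library 2 955 or library 3 932), fibroblasts (371; RLE 229, no block 218, looser gate 1110), oligodendrocytes against neurons (7299; expression filter 4591), astrocytes against oligodendrocytes (4167; without library 3 2627), mural cells (1555; without library 2 997 or library 3 896) and D1 against D2 (96; DESeq2 40, no block 34, default prior 152, 2 subclasses 161, without library 2 24 or library 3 33). The other subclass comparisons did so too: glutamatergic (1830; no block 985, without library 2 807 or 3 672), Sst-Npy (152; no block 87, without library 3 55) and Pvalb (657; 4 markers 281, shared barcodes removed 312, 2 subclasses 0, without library 1, 2 or 3 300, 83 and 400). Few UMIs limit Gjd2 and the small classes, where some sums hold only 1 or 2 UMIs of a connexin.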
